A study of Macrobrachium nipponense with 6 samples.

Results

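The miR-92 family was followed on miRNA arrays of Macrobrachium nipponense, the oriental river prawn, through the 59 probes whose names carry miR-92, miR-310, miR-311, miR-312 or miR-313, out of 2546 miRNA probes on each array. Of these, 34 were named for miR-92 and 25 for miR-310 to miR-313. The names come from insects, a mite and a water flea, each given by a prefix such as tca for a flour beetle, aae for a mosquito or dan for the fruit fly Drosophila ananassae, and members were chosen by name alone. Prawns of the normoxia group were kept at 6.5 ± 0.2 mg O2 per L and those of the hypoxia group at 2.0 ± 0.1 mg O2 per L, reached with nitrogen gas and held for 24 h. Each of the 3 samples of a group was total RNA of gill, hepatopancreas, muscle and hemocytes together, labelled with the dye Cy3 and put on 1 array, so a value is a level over all of these tissues. Fewer cells of a type and less RNA per cell cannot be told apart in such samples, and nothing in the labels ties the numbered samples to different animals, so a p-value here covers the spread among the 6 samples only.

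A miRNA is a short RNA that guides a silencing complex to messenger RNAs, mainly through its seed, bases 2 to 8 from the 5′ end. miR-92 is an old animal miRNA found in both insects and vertebrates. In Drosophila it has been linked to the maintenance of neural stem cells. miR-310 to miR-313 are relatives with the same seed that are encoded together in fruit flies, where they have been linked to Hedgehog signalling and to the response to diet. A precursor hairpin gives 2 arms, and in this family the seed lies on the 3p arm, while the 5p arm is the opposite strand.

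The array's target sequences show what the names stand for, and those below were chosen because the results turn on them. Bases 2 to 8 are in capitals. The miR-92 targets measured in the comparison were, with 1 fruit fly target named only,
tca-miR-92a-3p: aUUGCACUagucccggccua
tca-miR-92b-3p: aUUGCACUugucccggccug
cqu-miR-92: aUUGCACUugucccggccu
aae-miR-92a-3p: uAUUGCACuugucccggccua
aae-miR-92a-3p_R-1: uAUUGCACuugucccggccu
tur-miR-92-3p_1ss10CT: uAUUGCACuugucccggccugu
tur-miR-92-3p: uAUUGCACucgucccggccugu
ame-mir-92c-p3_1ss10CA: aAUUGCACuagucccggccugcu
bmo-miR-92a: uAUUGCACcagucccggccuau
tca-miR-92c-3p: uAUUGCACcagucccggccugac
and the miR-310 to miR-313 targets that are discussed were
dan-miR-311b_R-2_1ss9AT: uAUUGCACuuuccccagccu
der-miR-311a_R-2_1ss9AT: uAUUGCACuuucaccggccu
dan-miR-311b: uAUUGCACauuccccagccugg
dan-miR-310: uAUUGCACaccucccggccuau
dan-miR-312: uAUUGCACuugagacggcc

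All 20 miR-310 to miR-313 targets of the seed arm and 20 of the 24 miR-92 targets of that arm had AUUGCAC as bases 2 to 8. The other 4 miR-92 targets lack the first base, so their bases 2 to 8 read UUGCACU. The probes tca-miR-92a-3p, tca-miR-92b-3p and cqu-miR-92 are of this kind. The classes thus part after the seed. A seed-arm target of miR-310 to miR-313 lay 2 to 6 edits (median 4) from the nearest miR-92 target, an edit being 1 base changed, added or lost. Outside the family, AUUGCAC stood at bases 2 to 8 of 1 probe, dps-miR-2507b-3p, detected on 1 array. No probe on the array was named for the vertebrate relatives miR-25, miR-32, miR-363 and miR-367 or the nematode relative miR-235, and 0 were named for partners of miR-92 in vertebrate clusters (miR-17, miR-18, miR-19, miR-20 and miR-106). No probe outside the family had a target within 4 edits of a member.

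The arrays differed in sensitivity. Detection required a signal above local background of over 3 times the standard deviation of empty spots, a limit of 27.8 (hypoxia 2) to 94.5 (normoxia 3) intensity units, and 342 to 1001 of the 2546 probes passed it on single arrays. Hypoxia 3 stood apart from the other hypoxia arrays. Over the probes compared below, its mean correlation with the other arrays of its group was 0.754 (Pearson, across probes, which are not independent). For the other arrays that mean was 0.813 to 0.867. With the normoxia arrays hypoxia 3 correlated at 0.816 to 0.843, while hypoxia 1 and normoxia 1 gave 0.780. Changes that hypoxia 3 turned or moved by over 1.5 times are also given without it. The signal of added calibration probes named 3M was 10.8% and 7.14% of that of the probes named 3P on hypoxia 1 and 2, 1.22% on hypoxia 3, and 1.87% to 3.73% in normoxia; the files do not say what these names stand for. As a check of the tissue label, the muscle miRNAs miR-1 and miR-133 were detected on at least 1 array by 11 of 15 probes, up to 12861 intensity units above background, and the neural miR-124 by 3 of 8, up to 66.0; no marker of the other tissues was at hand.

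The family was seen mainly through its miR-92 probes. Of the 24 miR-92 probes of the seed arm, 7 were detected on all 6 arrays, 18 on at least 3 and 23 on at least 1. Of the 20 such probes of miR-310 to miR-313, 2 were detected on all 6 arrays, the same 2 were the ones on at least 3, and 17 were detected on at least 1. Over all probes of the series, 11.5% were detected on all 6 arrays and 60.4% on at least 1, against 15.3% and 78.0% of the 59 members. No test was made of these shares, since probes with near-identical targets are not independent of each other.

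**Figure D1:**
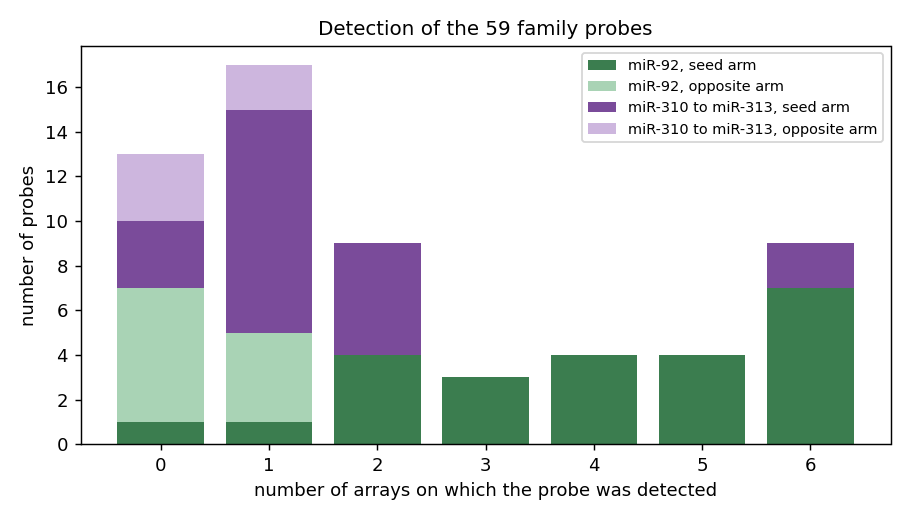
Number of family probes (vertical axis) by the number of arrays on which each was detected (horizontal axis), coloured by class and by whether the target holds the seed. Of the 25 probes named for miR-310 to miR-313, 2 were detected on more than 2 arrays, while 18 of the 34 miR-92 probes were.

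The opposite arm was near the limit. None of the 10 miR-92 probes without the seed was detected on more than 1 array, and the highest reading was 87.9 intensity units above background, from tca-miR-92c-5p on normoxia 2. The 5 opposite-arm probes of miR-311, miR-312, miR-313 and miR-310 were likewise detected on at most 1 array, with a highest reading of 76.0 from dme-miR-313-5p on normoxia 1. These arrays could not show a difference between groups in the opposite arm.

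The number of members detected differed from array to array. In normoxia 1, 2 and 3 there were 20, 29 and 15 members above the limit, and in hypoxia 1, 2 and 3 there were 23, 37 and 10. The groups overlapped. Of the miR-310 to miR-313 probes, 14 were detected on hypoxia 2, where the limit was lowest, and 2 to 7 on the other arrays. As shares of the 59 members these counts ran from 16.9% on hypoxia 3 to 62.7% on hypoxia 2, while the share of all probes detected was 16.5% and 35.7% on the same arrays.

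Among the fly names, miR-310, miR-312 and miR-313 gave no probe that could be compared. The brightest miR-310 probe over the 6 arrays was dan-miR-310, with 206 intensity units above background on normoxia 2, 144 on hypoxia 1 and at most 11.6 on the other arrays. The brightest miR-313 probe, dme-miR-313-5p, is of the opposite arm. Its seed-arm counterpart dme-miR-313-3p, named after its values were seen, read 147 on normoxia 2 and at most 31.4 elsewhere. The brightest miR-312 probe, der-miR-312, read 33.5 on hypoxia 2, the only array on which it was detected. Each of these probes was detected on only 1 or 2 arrays, which lay in either group. The 2 miR-310 to miR-313 probes detected throughout were shortened and altered forms of miR-311. From the nearest miR-92 target, der-miR-311a_R-2_1ss9AT lay 2 edits away and dan-miR-311b_R-2_1ss9AT 3, where the median of these names was 4. Other seed-arm targets of these names that lay as close were detected on at most 2 arrays. Which RNA of the prawn gave the signal of the 2 probes was not tested.

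Pairs of near-identical probes show how the target's letters went with detection. The full-length dan-miR-311b was detected on 2 arrays, with 139 intensity units above background on normoxia 3, 151 on hypoxia 1 and at most 18.5 elsewhere. Its form dan-miR-311b_R-2_1ss9AT, 2 bases shorter at the 3′ end and with the substitution A9U (counted from 1 at the 5′ end), was detected on all 6, at 268 to 645 units. The second miR-311 probe detected throughout, der-miR-311a_R-2_1ss9AT, also has U as base 9, as shown in its sequence. But so have 8 other seed-arm probes of these names, of which none was detected on more than 2 arrays. Among the 8, dan-miR-312, with 19 bases, was detected on 0 arrays.

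Pairs of miR-92 probes that differ at the 3′ end, the tenth base or the 5′ end gave these counts. The mosquito target aga-miR-92a was detected on 3 arrays; without its last base it is aae-miR-92a-3p, detected on 6, and without the last 2 it is aae-miR-92a-3p_R-1, also detected on 6. The mite target tur-miR-92-3p was detected on 5 arrays and its form with C10U, tur-miR-92-3p_1ss10CT, on 6. The beetle target tca-miR-92a-3p was detected on 6 arrays, while tca-miR-92a-3p_L+1_1ss10AC, with 1 base more at the 5′ end and A10C counted on the longer form, was detected on 3. For aae-miR-92b-3p and its form with A1G, aae-miR-92b-3p_1ss1AG, the number was 4 and 4. Different probes bind with different strength, so a difference in level between probes is not read here as a difference in amount of RNA. The part of the probe itself in these counts was not tested.

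The comparison of oxygen levels asked which members were higher or lower in hypoxia. It took each probe seen on every array of normoxia, of hypoxia or of both, 339 in the series, with 13 members: 11 miR-92 probes and 2 miR-311 probes. No member passed (limma, 0 of 13 at an adjusted p under 0.05, smallest adjusted p = 0.870), and 0 of the 13 had an unadjusted p under 0.05. Over the series the share called was 0.00% at the adjusted threshold (0 of 339) and 4.42% at the unadjusted one. By size, 9 of 11 miR-92 probes and 1 of 2 miR-311 probes lay below 0 (hypoxia minus normoxia), where 58.1% of all 339 did. The median change was -0.54 (log2) over the 11, -0.06 over the 2 and -0.09 over all 339. Without hypoxia 3 these medians were -0.36, -0.17 and -0.18. Of the 13, 4 miR-92 probes were missed on hypoxia 3 and entered through normoxia, so a low reading in hypoxia did not keep them out and the counts over the 13 are only a description. Of the 9 members detected on all 6 arrays, 6 lay below 0, with a median of -0.48. The median over all 292 such probes was -0.10. Their share below 0 was not counted, so the 6 of 9 are only a description.

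**Figure D2:**
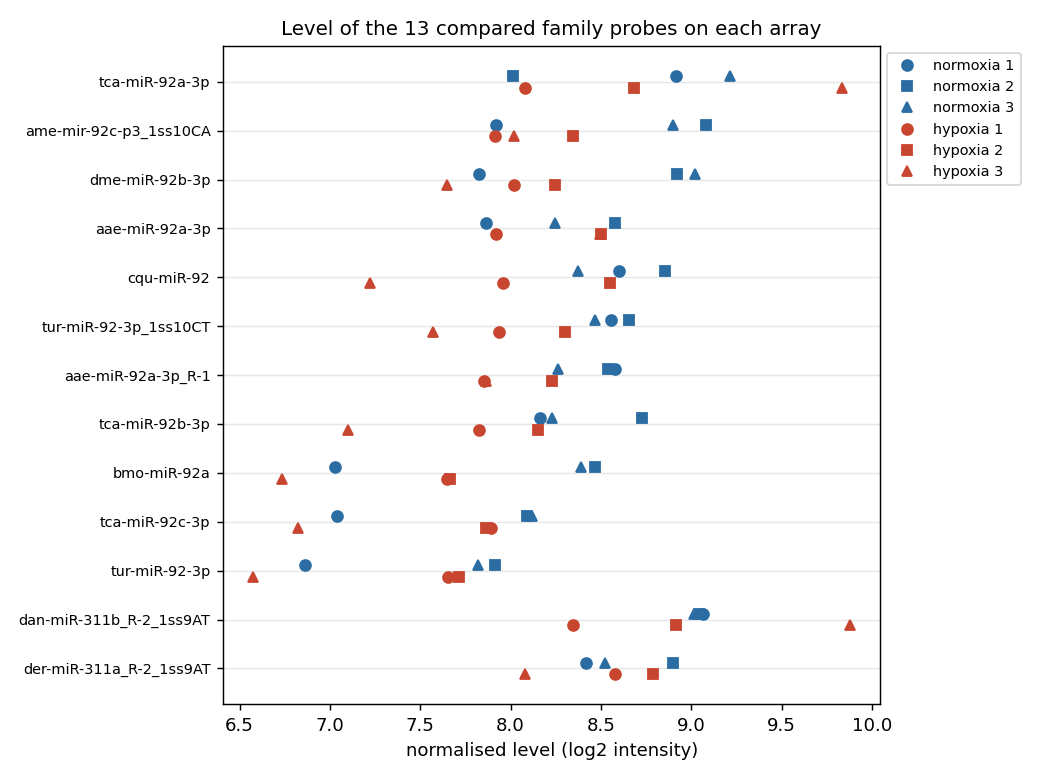
Normalised level (log2 intensity, horizontal axis) of each of the 13 compared members on every array; blue marks are normoxia, red marks hypoxia, and the shape gives the sample number. The groups overlap in 10 of the 13, and hypoxia 3 gives the lowest value in 8 of the 13 and the highest in 2. The counts for hypoxia 3 were made for members only, not over all compared probes.

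Among the 13 compared members, groups did not overlap in 3, all lower in hypoxia and all with UUGUC after UUGCAC, but these letters did not go with 1 direction. Of the 10 family targets that read so, 5 were compared, and among the 5 that were not, 2 lay higher in hypoxia without overlap: aga-miR-92a, detected on 3 arrays, and dme-miR-92a-3p, detected on 1. The highest readings of these 2 were 104 and 42.5 intensity units above background, both on normoxia 2. Lack of overlap here refers to normalised levels. In intensity above background, not scaled between arrays, groups overlapped in these 2 and in the 3 compared ones. The probe tur-miR-92-3p_1ss10CT read 8.56, 8.66 and 8.47 (normalised log2 level) in the 3 normoxia samples and 7.94, 8.30 and 7.57 in the 3 hypoxia samples, in order of their numbers. All hypoxia arrays lay below all normoxia arrays, by -0.62 on average (95% interval -1.28 to 0.03), with the smallest unadjusted p of the family, 0.0588, and an adjusted p of 0.870 (limma). For aae-miR-92a-3p_R-1 the levels were 8.58, 8.54 and 8.26 in normoxia and 7.86, 8.23 and 7.87 in hypoxia. Its groups did not overlap either, and its change was -0.48 (-1.06 to 0.10). For tca-miR-92b-3p the levels were 8.16, 8.73 and 8.23 in normoxia and 7.83, 8.15 and 7.10 in hypoxia, the last below the detection limit, with a change of -0.68 (-1.54 to 0.18), or -0.38 without hypoxia 3. Of all 339 compared probes, 6.19% lay lower in hypoxia without overlap, against these 3 of 13. Of the 3, tca-miR-92b-3p entered the comparison through normoxia alone, so its low reading in hypoxia did not keep it out. Among the 9 members detected on all 6 arrays, 2 lay lower in hypoxia without overlap. The same count was not made over all 292 such probes, so the 2 of 9 are only a description. The targets of the 3 are 2 edits from each other, so they are not independent measurements.

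The other compared probes with these letters, cqu-miR-92 and aae-miR-92a-3p, had overlapping groups. The mosquito-named cqu-miR-92 read 8.60, 8.85 and 8.37 in normoxia and 7.96, 8.55 and 7.22 in hypoxia. Hypoxia 2 lay among the normoxia values, and the change, -0.70 (-1.64 to 0.24), was the lowest of the family; it was -0.36 without hypoxia 3. The probe aae-miR-92a-3p, with 1 base more than aae-miR-92a-3p_R-1, read 7.87, 8.58 and 8.24 in normoxia and 7.92, 8.50 and 8.50 in hypoxia, so its groups overlapped throughout and its change was 0.08 (-0.67 to 0.82). That change was -0.0188 without hypoxia 3, -0.021 without hypoxia 2 and -0.10 without normoxia 1, and 0.27 and 0.25 without hypoxia 1 and normoxia 2.

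Targets with UAGUC in that place gave values in both directions. For dme-miR-92b-3p the levels were 7.83, 8.92 and 9.02 in normoxia and 8.02, 8.24 and 7.65 in hypoxia, and for ame-mir-92c-p3_1ss10CA, 1 edit away, they were 7.92, 9.08 and 8.90 in normoxia and 7.91, 8.34 and 8.02 in hypoxia. In both, normoxia 1 lay with the hypoxia arrays, and the changes were -0.62 (-1.59 to 0.35) and -0.54 (-1.44 to 0.36). For dme-miR-92b-3p the change was -1.004 without normoxia 1 and -0.41 without normoxia 3. For ame-mir-92c-p3_1ss10CA it was -0.90 without normoxia 1 and -0.32 without normoxia 2. The brightest compared miR-92 probe, tca-miR-92a-3p, read 8.92, 8.01 and 9.22 in normoxia and 8.08, 8.69 and 9.83 in hypoxia. Its highest value came from hypoxia 3 and its lowest from normoxia 2, and its change was 0.15 (-1.19 to 1.49), or -0.33 without hypoxia 3, -0.20 without normoxia 2 and up to 0.54 without hypoxia 1.

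The 3 targets with CAGUC or UCGUC were missed on hypoxia 3. The probe bmo-miR-92a read 7.03, 8.47 and 8.39 in normoxia and 7.65, 7.66 and 6.73 in hypoxia, with a change of -0.62 (-1.83 to 0.60) that was -0.31 without hypoxia 3, -1.08 without normoxia 1, -0.36 without normoxia 2 and -0.40 without normoxia 3. The changes of tca-miR-92c-3p and tur-miR-92-3p were both -0.22, and both turned without hypoxia 3, to 0.13 and 0.15, while without normoxia 1 they were -0.58 and -0.55. All of them were also low on normoxia 1, so each group held 1 low array.

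The miR-311 forms gave small changes with wide intervals. For dan-miR-311b_R-2_1ss9AT the normoxia levels were 9.07, 9.04 and 9.02, and those in hypoxia 8.34, 8.92 and 9.88. The normoxia arrays lay close together (SD 0.025, n = 3) while the hypoxia arrays fell on both sides of them, which gave a change of 0.01 (-1.01 to 1.02). Without hypoxia 3 that change was -0.41, and without hypoxia 1 it was 0.36. The levels of der-miR-311a_R-2_1ss9AT were 8.42, 8.90 and 8.52 in normoxia and 8.58, 8.79 and 8.08 in hypoxia, with overlapping groups and a change of -0.13 (-0.84 to 0.57), which was 0.0682 without hypoxia 3, 0.0107 without normoxia 2 and -0.28 without hypoxia 2.

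**Figure D3:**
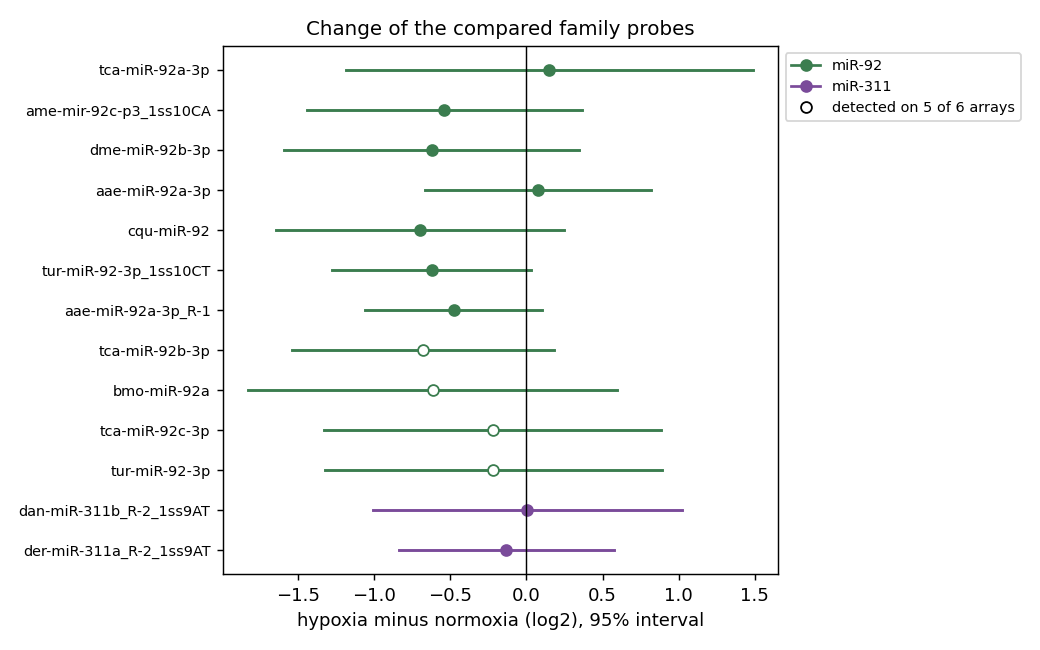
Change of each of the 13 compared members (hypoxia minus normoxia, log2) with its 95% interval from limma; open circles mark probes detected on 5 of the 6 arrays. All intervals hold 0, and those of 11 members also reach a 2-fold lower level in hypoxia.

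With 1 array left out, the change of 11 of the 13 members moved by over 1.5 times or turned. The exceptions were tur-miR-92-3p_1ss10CT and aae-miR-92a-3p_R-1. The changes of these 2 moved with the processing, from -0.84 to -0.28 for the first and from -0.64 to -0.16 for the second. In both, the value closest to no change came with cyclic loess scaling. All 13 changes were under 2-fold, yet the intervals of 11 reached a 2-fold lower level and those of 2 a 2-fold higher one, so equal levels are not shown either. The contrast of the conserved and the fly-named class was made on the brightest compared probe of each, tca-miR-92a-3p and dan-miR-311b_R-2_1ss9AT, as the difference of their log2 levels within an array. That difference was -0.33 ± 0.63 (SD, n = 3) in normoxia and -0.18 ± 0.12 in hypoxia, and its change of 0.14 did not pass (two-sided exact permutation test, p = 0.9; the smallest p that 3 against 3 allows is 0.1). Without normoxia 2 it was -0.21. An unequal response of these 2 probes was thus not shown, and the test cannot reach the threshold at this size. The change of tca-miR-92a-3p, 0.15, was the highest of the 11 compared miR-92 probes, whose median was -0.54. The contrast therefore does not stand for the classes.

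Hypoxia 3 lay on both sides of the normoxia values. It lay below every normoxia array in 9 of the 13 members and above every one in 2, tca-miR-92a-3p and dan-miR-311b_R-2_1ss9AT. These counts were made for members only and not over all compared probes, so a trait of the family is not shown. Against the normoxia mean, hypoxia 3 read 1.12 (log2) higher for the first of the 2 and 0.84 higher for the second. For cqu-miR-92 it lay at -1.38. On hypoxia 1 the same 3 probes lay at -0.64, -0.70 and -0.65, and on hypoxia 2 at -0.03, -0.12 and -0.06. Among members outside the comparison, hme-miR-92b read 247 intensity units above background on hypoxia 3, against 21.1 to 93.4 on the other arrays. The array's part in these readings was not tested; it also had the lowest calibration ratio.

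**Figure D4:**
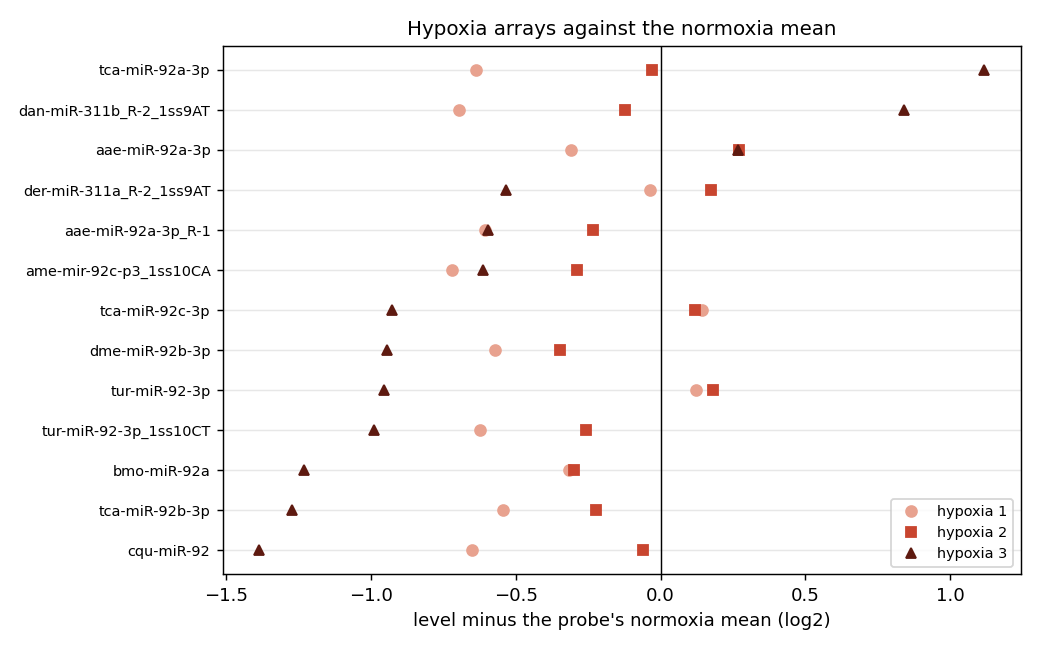
Level of each compared member on hypoxia 1, 2 and 3 minus that probe's normoxia mean (log2, horizontal axis), ordered by hypoxia 3. On hypoxia 3 the members spread from -1.38 to 1.12, and on hypoxia 2 from -0.35 to 0.27.

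How the members followed each other over the 6 arrays is given as a description, since the points share the arrays and the scaling. Closeness of the target did not fix how alike the patterns were. Over the 5 pairs of compared members 1 edit apart, Pearson's r ran from 0.0065 to 0.969 (median 0.864), and over the 12 pairs 2 edits apart from -0.68 to 0.947 (median 0.10). The highest of the first was that of cqu-miR-92 and tca-miR-92b-3p, the lowest that of aae-miR-92a-3p and aae-miR-92a-3p_R-1, and tur-miR-92-3p with its altered form tur-miR-92-3p_1ss10CT gave 0.541. The lowest 2 edits apart was that of tca-miR-92a-3p and tca-miR-92b-3p, while tca-miR-92c-3p and tur-miR-92-3p, 4 edits apart, gave 0.995. Across the classes, tca-miR-92a-3p followed dan-miR-311b_R-2_1ss9AT at 0.807 and ran against der-miR-311a_R-2_1ss9AT at -0.83. The 2 miR-311 forms, 2 edits apart, gave -0.63.

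Outside the family, among 326 compared probes and 1 per miRNA name, the patterns most like that of tca-miR-92a-3p were der-miR-10_L+1 (r = 0.960, 6 arrays), aae-miR-7_R+1 (r = 0.941) and lmi-miR-281-3p (r = 0.934). Those most like dan-miR-311b_R-2_1ss9AT were api-miR-281 (r = 0.995), ame-miR-71 (r = 0.978) and aae-miR-7_R+1 (r = 0.953). The changes of these probes lay between -0.0011 and 0.10 (log2).

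Members outside the comparison but detected on 3 or 4 arrays were all miR-92 probes, 7 in number. For aae-miR-92b-3p the levels were 6.71, 8.42 and 8.66 in normoxia and 7.73, 7.49 and 6.69 in hypoxia, and for ame-miR-92a 7.79, 7.81 and 7.50 in normoxia and 7.68, 7.93 and 6.79 in hypoxia. Both had their detected arrays in either group, 2 and 2. The same split held for hme-miR-92b, at 7.12 ± 0.37 (SD, n = 3) and 7.80 ± 1.23, and for aae-miR-92b-3p_1ss1AG, at 7.57 ± 0.51 and 7.33 ± 0.48. The probes tca-miR-92a-3p_L+1_1ss10AC, dpu-miR-92, named for a water flea and so the only crustacean name in the family, and aga-miR-92a were detected on 1 normoxia and 2 hypoxia arrays each. Levels of dpu-miR-92 were 7.09 ± 0.35 in normoxia and 7.13 ± 0.40 in hypoxia. For aga-miR-92a they were 6.56, 6.84 and 6.72 in normoxia and 7.15, 7.21 and 7.03 in hypoxia. Of the 7, it was the only 1 whose normalised levels did not overlap between groups. It lay higher in hypoxia, unlike aae-miR-92a-3p_R-1, whose target is the same without the last 2 bases. No difference between these probes was tested. Of the 46 members outside the comparison, 10 had groups that did not overlap, 8 higher and 2 lower in hypoxia, where 5.80% and 4.12% of all 2207 such probes did. Of these 10, 9 were detected on at most 2 arrays, so most of their readings lay below the detection limit.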

How the data were processed

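Cy3-labelled total RNA of 6 samples was hybridised to single-colour arrays of LC Sciences, per the labels. The scanner tables deposited by the authors hold the median intensity of each spot, not normalized. The deposited value table holds intensity values subtracted and scaled by the authors; the sources used here do not name the method, and it served as an alternative. Each array has 3968 spots, with 2546 miRNA probes of 1 spot each and 1130 empty spots.

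Local background, taken as the median over the 20 empty spots closest to a spot, was corrected with normexp (limma 3.58.1, R 4.3.3, offset 50), which shrinks changes of dim probes. After control spots were dropped, quantile normalization and log2 followed. Each probe seen on every array of normoxia, of hypoxia or of both was tested with limma (lmFit, eBayes), adjusted over all 339 by the Benjamini-Hochberg method at 0.05. The fit was tested on simulated data, but no outcome is given here, so no error rate is claimed from it. The number of arrays limits precision.

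Named probes are all compared members, members detected on at least 3 arrays, the brightest untested probe of each name, and the 3 probes most like the brightest member of each class. Members and lists were chosen with earlier results of these data known. Sequence groups and probe pairs were chosen after values were seen. Samples were grouped by title. Whether the replicate numbers pair the samples is not known. The correlation of deviations was -0.25, -0.27 and -0.06 for numbers 1, 2 and 3, which cannot exclude a pairing with 3 samples per group. Alternatives covered background, scaling, filter, spread model, weights, block, calibration ratio, single arrays left out and detection limit. Figures used matplotlib 3.10.9.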

Additional observations from a re-analysis of the deposited data

How the results depend on the processing

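Member probes past the adjusted threshold numbered 0 in all alternatives run (limma, smallest adjusted p of a member 0.235 to 1.00 over them), and 0 to 3 members had an unadjusted p under 0.05. Among all probes the count was 0 except without hypoxia 3, where it was 1, so single arrays left out gave 0 to 1. The median change of miR-92 was -0.13 over all probes, which takes in dim ones and those of the opposite arm, and -0.67 to -0.36 with single arrays left out. On the 11 compared probes it was -0.28 after cyclic loess scaling, -0.33 with array weights and -0.67 with local background subtracted. The median change of miR-311 was 0.23 after cyclic loess scaling and -0.17 to 0.09 with single arrays left out. The contrast of the 2 brightest probes was -0.21 to 0.41 with single arrays left out, the first without normoxia 2. Fitted with the replicate number as a block, the counts stayed 0, with a median of -0.54 for miR-92, and 11 probes instead of 15 had an unadjusted p under 0.05. Members detected on all 6 arrays numbered 18 when the deviation of empty spots was estimated robustly and 37 by authors' values above 0, instead of 9.

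For 6 members the change turned sign under some alternative. With the background subtracted and with an offset of 16, dan-miR-311b_R-2_1ss9AT was at -0.0181 and -0.0030. With array weights it was at -0.22 and tca-miR-92a-3p at -0.0340. With 75th percentile scaling and no scaling, aae-miR-92a-3p was at -0.0163 and -0.0716. For der-miR-311a_R-2_1ss9AT the values were 0.0758 with 75th percentile scaling, 0.25 with cyclic loess, 0.0205 with no scaling, 0.10 in the authors' values and 0.0223 with array weights. With single arrays left out the ranges were -0.41 to 0.36 for dan-miR-311b_R-2_1ss9AT, -0.33 to 0.54 for tca-miR-92a-3p, -0.10 to 0.27 for aae-miR-92a-3p, -0.28 to 0.0682 for der-miR-311a_R-2_1ss9AT, -0.58 to 0.13 for tca-miR-92c-3p and -0.55 to 0.15 for tur-miR-92-3p. The cause was not tested. The other 7 compared members stayed below 0 in all alternatives. A scan batch gave no fit, because the file headers name none, and filter, weights, spread model and covariate give no value for the contrast.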
